A study of Homo sapiens with 18 samples.

Results

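The genes described here encode the human microtubule motors, the kinesins and the dyneins. They were chosen by symbol from a table of 58870 genes: the numbered KIF and KIFC kinesins with the kinesin-associated protein KIFAP3, the chains of cytoplasmic dynein 1 and 2, the dynein light chains and the axonemal DNAH, DNAI and DNAL dyneins. Of 73 genes with such a symbol, 65 averaged at least 10 counts over the 18 libraries and are the members described. The 8 others were DNAH8, DNAH9, DNAI1, DNAI2, KIF2B, KIF4B, KIF12 and KIF19. By known role, 14 members were grouped as mitotic motors, 24 as transport motors and 25 as ciliary motors, and KIF26A and KIF26B, which have no established motor activity, were kept apart.

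The study sequenced bulk mRNA of HEK293 Flp-In cells, which derive from human embryonic kidney and carry 1 recombination site where a transgene can be placed. Endogenous NRF1, a transcription factor best known for genes of mitochondrial respiration, was depleted with an siRNA (siNRF1), and a non-targeting siRNA (siNT) served as control. Both siRNAs were applied to cells with no transgene, to a stable line with full-length NRF1 (NRF1-FL) and to a stable line with NRF1 lacking exon 7 (NRF1-ΔE7), which gave 6 conditions with 3 libraries each. The transgenes were doxycycline-inducible and resistant to the siRNA. Every library, also those without a transgene, carries the treatment label siRNA plus doxycycline, which per the labels was added 24 h after transfection (the study's methods give a shorter interval). It is not stated if cells lacking a transgene were parental or held another insert. Each isoform was represented by 1 line, so that an isoform and its line cannot be told apart. Replicates were distinguished by number only, and p-values therefore measure the spread between these libraries, which may be technical.

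Kinesins and dyneins convert ATP hydrolysis into movement along microtubules, most kinesins towards the growing plus end and dyneins towards the minus end. In dividing cells a set of kinesins builds the spindle and the midbody, while kinesin-1, kinesin-3 and cytoplasmic dynein 1 carry organelles and vesicles. Cilia are assembled by heterotrimeric kinesin-2 (KIF3A, KIF3B and KIFAP3), which moves intraflagellar transport trains outwards, and by dynein-2, which returns them, whereas axonemal dyneins make motile cilia beat and have no known role in a kidney-derived line that grows only primary cilia.

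The libraries held 31179285 to 44802675 counts each. NRF1 itself was at 31.1, 29.9 and 29.3 CPM (counts relative to the TMM-scaled library size) in the siNT libraries without a transgene and at 7.19, 9.25 and 7.70 CPM in the siNRF1 libraries. Summed over endogenous and transgenic reads, NRF1 averaged 54.4 and 49.6 CPM under siNT and siNRF1 with NRF1-FL, and 58.5 and 38.3 CPM with NRF1-ΔE7. Under siNRF1 the NRF1-ΔE7 line thus had less NRF1 mRNA than the NRF1-FL line (log2 fold-change −0.37 ± 0.05 SE, adjusted p = 9.0e-07, edgeR). The HEK293 markers KRT8, KRT18, VIM, NES, NEFM, PAX2 and LIN28B were present and summed to 1772 to 2433 CPM per library. After siNRF1 without a transgene, 3 of 7 were called lower and 1 higher (15.2% and 13.7% of all genes tested). Spermatid and blood markers summed to at most 0.27 CPM, and none was abundant enough to be tested.

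All 65 members passed the filter on low counts and were tested among 17962 genes with edgeR's quasi-likelihood test, with Benjamini-Hochberg adjustment over all genes tested. A gene is called here where the adjusted p was under 0.05 and the absolute log2 fold-change above 0.5.

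Without NRF1 depletion the motors spanned 4 orders of magnitude per unit of transcript length. In the siNT libraries without a transgene, the light chain DYNLL1 had the highest level, 274 CPM per kb of canonical transcript (SD 3.56, n = 3), followed by the light chains DYNLRB1 (162 CPM per kb) and DYNLT1 (114.5 CPM per kb). The chromokinesin KIF22 (90.1 CPM per kb) and the kinesin-1 heavy chain KIF5B (89.2 CPM per kb) overlapped each other in range. The cytokinesis motor KIF23 and the bipolar spindle motor KIF11 came next, at 57.4 and 52.6 CPM per kb. The kinesin-2 subunits stood at 16.95 (KIFAP3), 10.7 (KIF3B) and 9.39 CPM per kb (KIF3A). Axonemal heavy chains occupied the lower end, with DNAH5 and DNAH12 at 0.024 and 0.022 CPM per kb and overlapping ranges, but DNAH17 (4.16 CPM per kb) and DNAH14 (2.64 CPM per kb) ranked 40 and 45 of the 65.

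Without a transgene, kinesin-1 and KIF3A were lower and most ciliary motors higher with siNRF1 than with siNT. Of the 65 members, 8 were called lower (15.2% of all genes tested) and 18 higher (13.7% of all genes). Together 26 members, or 40.0%, were called, against 28.9% of all genes. With NRF1-FL, 4 members were called lower (14% of all genes) and 20 higher (13.1% of all genes), 24 in all against a background of 27.1%. With NRF1-ΔE7, 6 were called lower (16.8% of all genes) and 20 higher (16% of all genes), 26 in all against a background of 32.8%. By the adjusted p alone 49, 51 and 54 members passed in the 3 comparisons, and 64.5%, 63.5% and 68.1% of all genes did. By role, 17 of 25 ciliary motors, 6 of 24 transport motors and 2 of 14 mitotic motors were called without a transgene, beside KIF26B. The same 17 members were called higher in all 3 siRNA comparisons, and 4 were called lower in all 3: KIF5A, KIF5B, KIF5C and DNAH14. A further 15 members stayed within 0.2 on the log2 scale in all 3, among them KIF11, KIF23, KIF3B, DYNC1H1 and DYNLL1. The comparisons share no library, but they share the siRNA and the fit. The shares of all genes tested with such patterns over the 3 comparisons were not counted. Upper-quartile scaling put the median of all genes at 0.09, 0.11 and 0.12 on the log2 scale in the 3 comparisons, against 0.01, 0.02 and 0.02 with TMM. It gave 7 lower and 21 higher members without a transgene, and the share of lower calls among all genes went from 52.6% to 42.3%. The values within 0.1 of 0 reported for KIF3B, KIF11, KIF23, DYNC1H1 and DYNLL1 changed sign under one or more settings. In bulk RNA, fewer cells of a kind and less RNA per cell cannot be told apart.

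**Figure D1:**
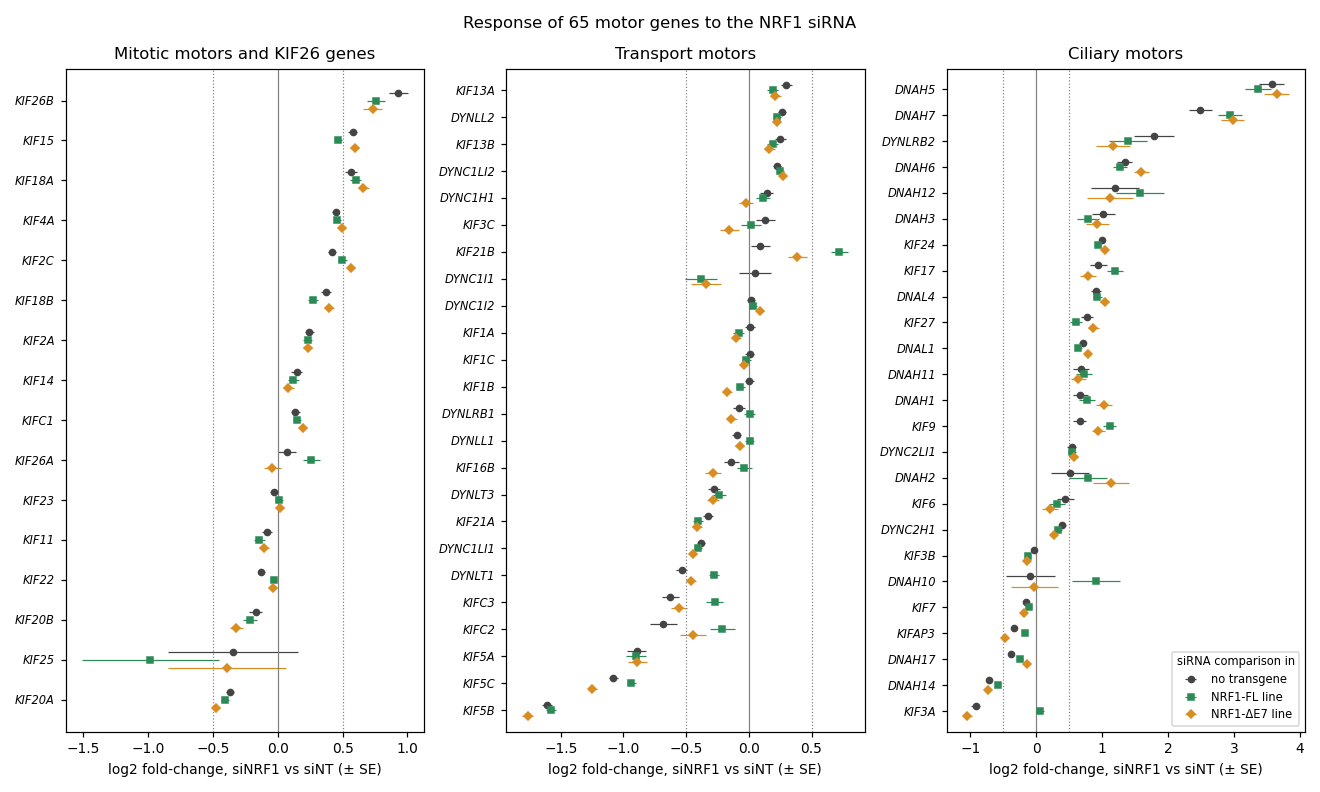
Log2 fold-change of siNRF1 against siNT (x axis, ± SE) for each of the 65 motor genes (y axis), by role and in the 3 cell backgrounds (circles, no transgene; squares, NRF1-FL line; diamonds, NRF1-ΔE7 line); dotted lines mark 0.5 in either direction. For KIF5B, KIF5C, KIF5A and DNAH14 all 3 values lie left of the dotted line, and for KIF3A the NRF1-FL value sits at 0.05 while the others lie near −1.

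Among the transport motors, the 3 kinesin-1 heavy chains showed the most negative log2 fold-changes of siNRF1 against siNT without a transgene. KIF5B (chr10:32009015-32056425, GRCh38, minus strand), the ubiquitous kinesin-1 heavy chain that carries mitochondria, lysosomes and mRNA granules, was at 515, 538 and 517 CPM in siNT and at 181, 163 and 169 CPM in siNRF1 libraries. The groups were far apart, a 3.05-fold decrease (log2 fold-change −1.61 ± 0.04 SE, adjusted p = 1.8e-19, edgeR). With NRF1-FL, KIF5B went from 589, 582 and 536 CPM to 189, 191 and 192 CPM. With NRF1-ΔE7 it went from 564, 548 and 556 CPM to 168, 171 and 152 CPM. Neither isoform brought KIF5B back to its siNT level, with log2 fold-changes of −1.58 and −1.76.

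KIF5C, a heavy chain otherwise enriched in neurons, fell from 97.0, 98.9 and 95.4 CPM to 47.1, 45.9 and 44.8 CPM without a transgene (log2 fold-change −1.08 ± 0.04 SE, adjusted p = 1.3e-17, edgeR). It fell in both lines as well (log2 fold-changes −0.94 with NRF1-FL and −1.25 with NRF1-ΔE7). The siRNA effect differed between the lines (interaction −0.31 ± 0.05 SE, adjusted p = 0.00012, edgeR). KIF5A, the neuronal heavy chain mutated in spastic paraplegia, was low at 14.4, 13.6 and 13.5 CPM in siNT and 6.93, 7.53 and 7.87 CPM in siNRF1 libraries. Its log2 fold-changes in the 3 backgrounds were −0.90, −0.90 and −0.89. Summed over the 3 heavy chains, kinesin-1 mRNA went from 106 CPM per kb of canonical transcript (SD 2.32, n = 3) to 37.1 CPM per kb (SD 1.63, n = 3) without a transgene. The sum went from 114.5 to 41.6 CPM per kb with NRF1-FL and from 113 to 35.8 CPM per kb with NRF1-ΔE7. KIF5B made up 84.5% of that sum in siNT and 78.7% in siNRF1 libraries. Of 15 listed kinesin light chains and cargo adaptors, which work with these heavy chains, none was called without a transgene by edgeR (28.9% of all genes were). By the adjusted p alone 4 were lower and 8 higher (64.5% of all genes passed in either direction). The light chain KLC1 had a log2 fold-change of 0.35.

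The siRNA itself was examined because every siNRF1 library shares it. Shown are its guide strand, with the seed (bases 2 to 8) in capitals, and the first site in the KIF5A 3′ UTR that pairs with this seed, with the match in capitals.
siNRF1 guide strand: aGAUACAGaggacaauagc
KIF5A 3′ UTR site: tcttacttactCTGTATCtctttgtactc
The listed siRNA strand matches the NRF1 coding sequence, and the seed match CTGTATC was found in the 3′ UTR (GENCODE v44 canonical transcripts) of 4 of 65 members (6.15%). Of 14245 genes tested that have a 3′ UTR, 11% held it. The 4 members were KIF5A with 2 matches and DNAL1, DYNC1I2 and KIF1C with 1 each. KIF5A was called lower, DNAL1 was called higher, and DYNC1I2 and KIF1C had log2 fold-changes of 0.02 and 0.01 without a transgene. KIF5B, KIF5C and KIF3A held no match. Over all genes with a 3′ UTR, those with a seed match had a median log2 fold-change of −0.30 and those without of 0.03, and the part of the siRNA seed in any member's change was not tested.

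Cytoplasmic dynein 1, the main minus-end transport motor, was not called in any of its 5 subunits in the 3 siRNA comparisons. Its heavy chain DYNC1H1 ranged from 582 to 742 CPM over the 18 libraries, and siNT and siNRF1 libraries overlapped in each background (log2 fold-changes 0.14, 0.11 and −0.02). Its light intermediate chains, which link the motor to cargo adaptors, moved in opposite directions. DYNC1LI1 was at 78.1, 79.1 and 76.0 CPM in siNT and 60.8, 58.8 and 59.6 CPM in siNRF1 libraries (log2 fold-change −0.38 ± 0.03 SE, adjusted p = 2.4e-10, edgeR). DYNC1LI2 was at 191, 201 and 192 CPM and 228, 223 and 230 CPM (0.22 ± 0.03 SE, adjusted p = 6.1e-07, edgeR). The ratio of DYNC1LI1 to DYNC1LI2, both per kb of canonical transcript, was 0.696 in siNT and 0.458 in siNRF1 libraries without a transgene (SD 0.016 and 0.0057, n = 3). It was 0.726 and 0.4605 with NRF1-FL and 0.648 and 0.393 with NRF1-ΔE7. A gene on the other strand covers 22.1% of the DYNC1LI2 exon bases, and its reads cannot be told from DYNC1LI2 reads where strand was not used in counting.

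Of the 6 dynein light chains, which are shared with many other complexes, DYNLT1 was called lower without a transgene (83.9, 82.2 and 84.8 CPM in siNT, 55.7, 58.8 and 58.6 CPM in siNRF1 libraries). The call was lost with upper-quartile scaling. With NRF1-FL its decrease was smaller (log2 fold-change −0.28 against −0.54 without a transgene, interaction 0.26, adjusted p = 0.0068, edgeR). DYNLL1, the hub light chain, had 179, 183 and 184 CPM in siNT and 163, 172 and 176 CPM in siNRF1 libraries. Its log2 fold-change was −0.10 without a transgene, 0.01 with NRF1-FL and −0.07 with NRF1-ΔE7. Of 25 listed dynactin subunits and dynein regulators, 4 were called lower and 4 higher in each siRNA comparison (without a transgene, 15.2% of all genes were called lower and 13.7% higher). Dynactin's largest subunit DCTN1 (log2 fold-change −0.55), the cargo adaptor HOOK3 (−0.91) and the capping protein CAPZA1 (−0.73) were lower without a transgene, and ninein (NIN, 1.31) and DCTN6 (0.68) were higher. The dynein activator PAFAH1B1, mutated in lissencephaly, was at −0.23, short of the fold threshold.

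The kinesin-14 genes KIFC3 and KIFC2, minus-end directed motors of interphase cells, were both called lower without a transgene. KIFC3 was at 22.2, 20.9 and 21.4 CPM in siNT and 14.6, 13.2 and 14 CPM in siNRF1 libraries (log2 fold-change −0.63 ± 0.07 SE, adjusted p = 1.6e-08, edgeR). KIFC2 was at 10.9, 12.9 and 12.3 CPM against 6.48, 6.99 and 8.88 CPM (−0.68 ± 0.11 SE, adjusted p = 6.5e-06, edgeR). Neither gene passed the fold threshold in the NRF1-FL line (−0.27 and −0.21). With NRF1-ΔE7, KIFC3 was called lower (−0.56, but −0.46 and not called with upper-quartile scaling), and KIFC2 was at −0.44. KIFC2 shares 17.8% of its exon bases with a gene on the other strand. The kinesin-3 motors of synaptic vesicle precursors and endosomes, KIF1A, KIF1B and KIF1C, were within 0.2 on the log2 scale in each background.

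**Figure D2:**
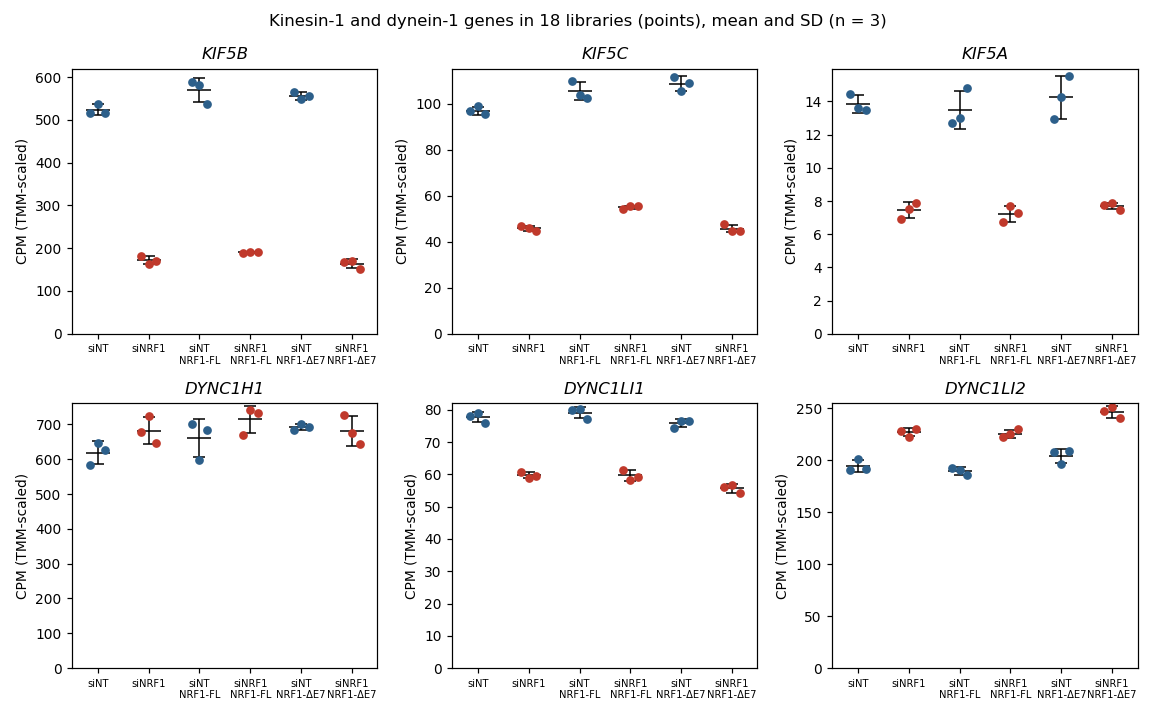
CPM (y axis, linear from 0) of the kinesin-1 heavy chains KIF5B, KIF5C and KIF5A and of the dynein-1 genes DYNC1H1, DYNC1LI1 and DYNC1LI2 in the 6 conditions (x axis); points are libraries (blue siNT, red siNRF1), and bars show the mean and SD of 3 libraries. The red points of each KIF5 gene lie below all blue points in every background, DYNC1H1 points overlap, and DYNC1LI1 and DYNC1LI2 shift in opposite directions.

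Among the ciliary motors, most were higher with siNRF1 than with siNT in each background, and KIF3A was lower without a transgene and in the NRF1-ΔE7 line. Without a transgene 15 of 25 ciliary motors were called higher and 2 lower (KIF3A and DNAH14), with a median log2 fold-change of 0.67 against 0.01 over all genes tested. With NRF1-FL 17 were called higher and 1 lower, and with NRF1-ΔE7 16 and 2. Without a transgene, 13.7% of all genes tested were called higher and 15.2% lower. These shares were 13.1% and 14% with NRF1-FL, and 16% and 16.8% with NRF1-ΔE7.

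KIF3A (chr5:132692628-132737638, GRCh38, minus strand) encodes the motor subunit of heterotrimeric kinesin-2 that pairs with KIF3B and is required to build a cilium. Without a transgene it was at 62.2, 59.4 and 56.1 CPM in siNT and at 32.5, 29.8 and 31.4 CPM in siNRF1 libraries. With NRF1-FL it was at 61.4, 60.8 and 58.3 CPM in siNT and at 58.0, 62.9 and 66.0 CPM in siNRF1 libraries. In the NRF1-ΔE7 line it was at 54.3, 57.3 and 56.1 CPM in siNT and at 25.4, 31.6 and 24.6 CPM in siNRF1 libraries. The siNT libraries of the 3 backgrounds and the siNRF1 libraries with NRF1-FL thus spanned 54.3 to 66.0 CPM, and the siNRF1 libraries without a transgene or with NRF1-ΔE7 lay at 24.6 to 32.5 CPM, with no overlap.

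KIF3A accordingly fell without a transgene (log2 fold-change −0.92 ± 0.07 SE, adjusted p = 1.8e-11, edgeR) and in the NRF1-ΔE7 line (−1.05 ± 0.07 SE, adjusted p = 1.6e-12, edgeR), whereas the value in the NRF1-FL line was 0.05 ± 0.06 SE (adjusted p = 0.49, edgeR). The siRNA effect differed between the NRF1-ΔE7 and NRF1-FL lines by −1.10 ± 0.09 SE (adjusted p = 7.2e-09, edgeR), and between the NRF1-FL line and cells without a transgene by 0.97 ± 0.09 SE (adjusted p = 5.8e-08, edgeR). Between the NRF1-ΔE7 line and cells without a transgene the difference was −0.12 ± 0.09 SE (adjusted p = 0.56, edgeR). The interaction test between the NRF1-ΔE7 and NRF1-FL lines called KIF3A alone (2.24% of all genes, 1.92% lower), and 3 members passed the adjusted p alone (7.19% of all genes). The interaction test between the NRF1-FL line and cells without a transgene called KIF3A and KIF21B (1.9% of all genes, 1.75% higher). There 4 members passed the adjusted p alone (5.33% of all genes). In the interaction test between the NRF1-ΔE7 line and cells without a transgene neither edgeR nor DESeq2 called a member (0.156% of all genes). None passed edgeR's adjusted p alone there (2.03% of all genes).

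KIF3B, the partner motor subunit (chr20:32277651-32335011, GRCh38, plus strand), did not share this pattern. Without a transgene it was at 65, 68 and 63.9 CPM in siNT and at 65.2, 63.2 and 63.8 CPM in siNRF1 libraries (log2 fold-change −0.03 ± 0.04 SE, adjusted p = 0.44, edgeR). Its log2 fold-changes in the lines were −0.12 and −0.14, with a difference between the lines of −0.02 ± 0.05 SE (adjusted p = 0.91, edgeR). KIFAP3, the non-motor subunit that binds cargo, was at 51.3, 49.0 and 49.9 CPM in siNT and at 41.5, 38.6 and 39.0 CPM in siNRF1 libraries without a transgene. Its log2 fold-changes were −0.33 without a transgene, −0.175 with NRF1-FL and −0.47 with NRF1-ΔE7. The lines differed (interaction −0.29 ± 0.06 SE, adjusted p = 0.00099, edgeR), all below the fold threshold. The ratio of KIF3A to KIF3B, both per kb of canonical transcript, was 0.876 in siNT and 0.473 in siNRF1 libraries without a transgene (SD 0.045 and 0.014, n = 3). It was 0.759 and 0.854 with NRF1-FL, and 0.726 and 0.389 with NRF1-ΔE7. KIF17, the homodimeric kinesin-2 of cilia, was called higher in all 3 comparisons (2.67, 1.92 and 2.38 CPM in siNT, 4.49, 4.65 and 4.37 CPM in siNRF1 libraries without a transgene). KIF3C, a neuronal kinesin-2, was called in none.

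**Figure D3:**
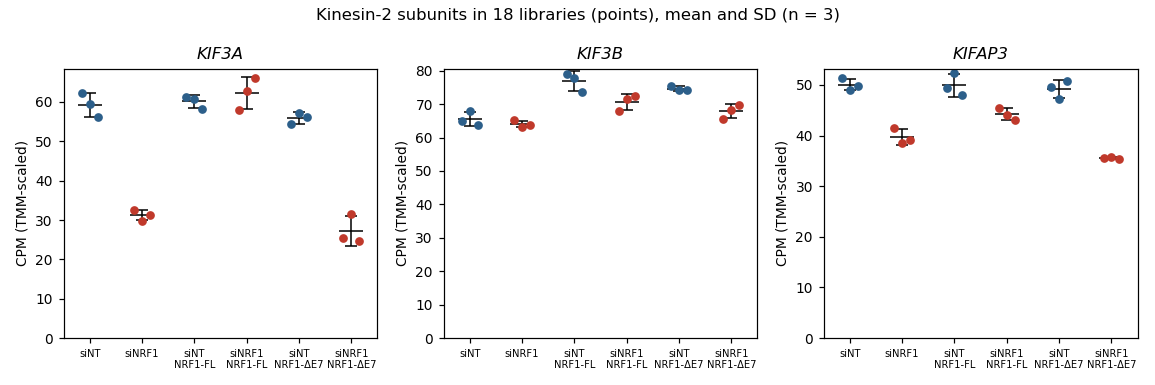
CPM (y axis, linear from 0) of the kinesin-2 subunits KIF3A, KIF3B and KIFAP3 in the 6 conditions (x axis); points are libraries (blue siNT, red siNRF1), bars show the mean and SD of 3 libraries. KIF3A is at 24.6 to 32.5 CPM in the siNRF1 libraries without a transgene or with NRF1-ΔE7 and at 58.0 to 66.0 CPM with NRF1-FL, while KIF3B stays between 63.2 and 79.2 CPM.

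NRF1 binds the palindromic sequence GCGCATGCGC as a homodimer, and the promoters of the members were searched for it. Promoter windows of 250 bases before to 50 bases after the start site (RefSeq, GRCh38.p14) were at hand for 55 of the 65 members. KIF5A, KIF13B, KIF21B, KIF26B, KIF27, KIFC2, KIFC3, DNAH3, DNAH17 and DYNLL2 had no window and were not searched. The palindrome itself was present in 1 of the 55 (1.82%), KIF6, against 2.54% of the promoters of 11719 genes tested. GCGCATGCGC or its variant GCGCACGCGC, on either strand (GCGCGTGCGC is the variant's other strand), was present in 5 of the 55 (9.09%), against 5.94% of the promoters of 11719 genes tested. The 5 windows are shown because they include KIF3A. They are 30 bases long, read along the gene's own strand, and have the motif in capitals.
KIF3A chr5:132737672-132737701 minus strand: tggcagcattGCGCACGCGCggcctcagtc
KIF6 chr6:39725532-39725561 minus strand: actcgctcatGCGCATGCGCagcgctctcc
DNAL1 chr14:73644968-73644997 plus strand: gccgagaagtGCGCACGCGCactgaccccg
DYNC1H1 chr14:101964432-101964461 plus strand: cccgccccccGCGCACGCGCggcgccgtga
DYNLL1 chr12:120469790-120469819 plus strand: tgcgaccattGCGCGTGCGCgcaggccggc
The motif began 145 bases before the start site in KIF3A, 143 in KIF6, 131 in DYNC1H1, 42 in DYNLL1 and 8 in DNAL1. Of these 5 genes, KIF3A was called lower, DNAL1 was called higher, and KIF6, DYNC1H1 and DYNLL1 were called in no siRNA comparison. A match describes the letters in the window and is not a measured binding site.

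Of the subunits of dynein-2, the retrograde motor of cilia, only DYNC2LI1 was a called member. The heavy chain DYNC2H1 was at 78.7, 87.5 and 84.1 CPM in siNT and 115, 108 and 106 CPM in siNRF1 libraries without a transgene. The groups did not overlap (log2 fold-change 0.40 ± 0.06 SE, adjusted p = 1.3e-06, edgeR, below the fold threshold). Its light intermediate chain DYNC2LI1 was called higher in all 3 comparisons (log2 fold-changes 0.53, 0.55 and 0.57). Without a transgene it lost the call when replicate 3 of either group was left out. Of 26 listed dynein-2 subunits and intraflagellar transport proteins, the cargo of kinesin-2, 11 were called higher and 2 lower without a transgene (13.7% and 15.2% of all genes). Their median log2 fold-change was 0.45. IFT122 (1.48) and IFT22 (1.16) had the largest increases, and TTC21B (−0.85) and TRAF3IP1 (−0.81) were lower. The dynein-2 intermediate chains WDR34 and WDR60 were at 0.39 and 0.01, and its light chain TCTEX1D2 was at −0.08 (adjusted p = 0.44, edgeR). TRAF3IP1 and TCTEX1D2 also differed in siRNA effect between the lines. The interaction (NRF1-ΔE7 minus NRF1-FL) was −0.42 (adjusted p = 0.0025, edgeR) and −0.56 (adjusted p = 0.0052, edgeR), both in the direction of KIF3A, whereas IFT122 differed in the other direction (0.58, adjusted p = 2.2e-06, edgeR).

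The axonemal dyneins gave the largest fold increases among the members, from low levels. DNAH5, an outer-arm heavy chain mutated in primary ciliary dyskinesia, was at 0.349, 0.235 and 0.545 CPM in siNT and 4.72, 4.56 and 4.42 CPM in siNRF1 libraries without a transgene, an 11.9-fold increase (log2 fold-change 3.57 ± 0.20 SE, adjusted p = 1.6e-13, edgeR). With NRF1-FL it rose from 0.259, 0.402 and 0.415 CPM to 4.04, 3.78 and 3.43 CPM, and with NRF1-ΔE7 from 0.297, 0.581 and 0.374 CPM to 5.33, 5.48 and 4.94 CPM. The lowest siNRF1 library was therefore above the highest siNT library in every background. DNAH5 averaged 99.4 counts per library. The inner-arm heavy chains DNAH7 (0.624, 1.48 and 1.03 CPM in siNT, 5.44, 5.69 and 5.98 CPM in siNRF1 libraries), DNAH6 (1.87, 2.45 and 2.30 CPM, then 5.37, 5.75 and 5.54 CPM) and DNAH3 (1.02, 1.48 and 1.44 CPM, then 2.66, 2.76 and 2.50 CPM) rose without a transgene and in both lines.

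Of the 13 axonemal dynein members, 9 were called higher and 1 lower without a transgene, 11 and 1 in the NRF1-FL line, and 10 and 1 in the NRF1-ΔE7 line. Of all genes tested, 13.7%, 13.1% and 16% were called higher in these comparisons, and 15.2%, 14% and 16.8% lower. Besides the heavy chains named, DNAH1, DNAH11, DNAH12 and the light chains DNAL1 and DNAL4 were called higher in all 3 comparisons. With NRF1-ΔE7, DNAH12 lost the call without siNRF1 replicate 3. DNAH10 and DNAH2, which averaged 16.1 and 34.1 counts per library, were also called higher with NRF1-FL, and DNAH2 with NRF1-ΔE7. With NRF1-FL DNAH10 lost the call with DESeq2, without the filter on low counts, and without replicate 2 or 3 of either group. In the same line DNAH2 lost it without siNT replicate 1 or 2 or siNRF1 replicate 1 or 3. The counterexample was DNAH14, which fell from 37.8, 36.4 and 37.1 CPM to 22.8, 23.0 and 21.7 CPM without a transgene (log2 fold-change −0.72 ± 0.04 SE, adjusted p = 4.7e-13, edgeR). In the lines its log2 fold-changes were −0.59 and −0.74. DNAH17, an outer-arm chain of sperm flagella, was at 55.7 to 58.9 CPM in siNT and 40.4 to 46.3 CPM in siNRF1 libraries (−0.38 ± 0.05 SE, adjusted p = 2.9e-07, edgeR), with −0.25 and −0.15 in the lines. DNAH14 and DNAH17 made up most of the axonemal heavy chain mRNA, and the summed level of the heavy chains went from 7.79 to 7.13 CPM per kb without a transgene (SD 0.17 and 0.21, n = 3). It went from 8.28 to 7.94 CPM per kb with NRF1-FL and from 7.61 to 7.83 CPM per kb with NRF1-ΔE7. Without DNAH14 and DNAH17 the sum went from 0.987 to 2.34 CPM per kb (SD 0.11 and 0.11, n = 3). DNAH17 shares 12.6% of its exon bases with genes on the other strand.

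DYNLRB2, the ciliary roadblock light chain, was at 0.225, 0.437 and 0.258 CPM in siNT and 0.973, 1.07 and 1.08 CPM in siNRF1 libraries and was called higher in all 3 comparisons. KIF24, a kinesin-13 that restrains cilium growth at the mother centriole, went from 16.2, 16.4 and 17.6 CPM to 32.6, 33.9 and 33.6 CPM without a transgene, a 1.99-fold increase (adjusted p = 5.6e-15, edgeR). It was 1.91-fold and 2.06-fold higher in the lines. KIF9 and KIF27, motors of motile cilia, were called higher in each background (17.8% of the KIF9 exon bases are shared with genes on the other strand). KIF7, the kinesin of Hedgehog signalling at the ciliary tip, was at −0.16, −0.12 and −0.19 on the log2 scale.

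Among genes for axonemal dynein assembly and docking, DNAAF1 was at 0.125, 0.202 and 0.0861 CPM in siNT and 1.02, 0.919 and 1.37 CPM in siNRF1 libraries without a transgene. CASC1 was at 0.274, 0.168 and 0.373 CPM in siNT and 2.33, 2.25 and 2.02 CPM in siNRF1 libraries. DNAAF1 and other genes low in siNT passed the filter on low counts through their siNRF1 libraries, so no count over that list is given. Among regulators of cilium genes, FOXJ1 (1.66, from 0.279 to 0.913 CPM) and RFX3 (0.77), transcription factors that switch on ciliary genes, rose without a transgene. RFX7 (−1.04) and MYB (−1.105, adjusted p = 4.1e-09, edgeR), which acts early in multiciliated cell formation, fell, MYB from 10.6 to 4.88 CPM. Markers of multiciliated cells summed to 15.4 to 17.9 CPM in siNT and 24.0 to 26.5 CPM in siNRF1 libraries without a transgene. Of the 9 markers, 7 were tested. FOXJ1 is among these markers and among the cilium regulators. It may have passed the filter on low counts through its siNRF1 libraries, so no count of calls is given for either list. The defining marker SNTN was at 0 in every siNT and siNRF1 library without a transgene and TEKT1 in every siNRF1 library without a transgene. Neuron markers moved in the same comparison from 28.9 to 31.3 CPM up to 57.7 to 60.8 CPM in sum, with 3 of 5 tested genes called higher and 1 lower. Fibroblast markers moved from 29.2 to 31.1 CPM up to 71.9 to 75.4 CPM, with 2 of 4 called higher and 1 lower. Of all genes tested, 13.7% were called higher and 15.2% lower. The part of these programmes in the values of the ciliary motors was not tested.

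**Figure D4:**
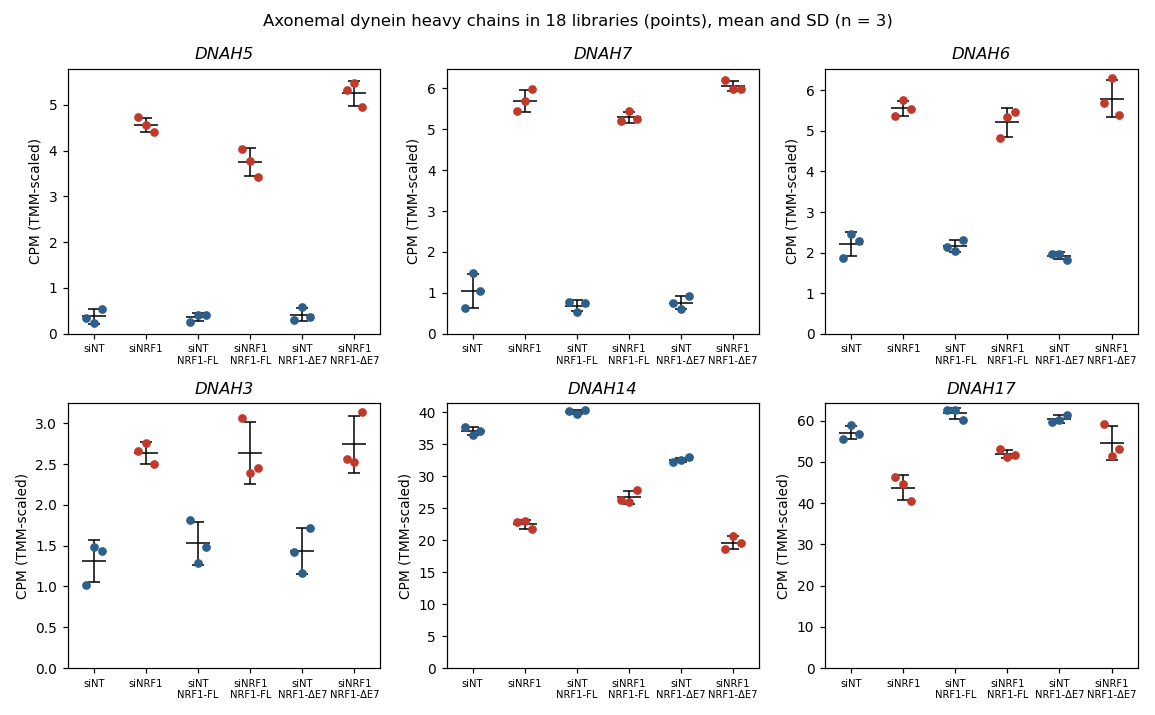
CPM (y axis, linear from 0) of 6 axonemal dynein heavy chains in the 6 conditions (x axis); points are libraries (blue siNT, red siNRF1), bars show the mean and SD of 3 libraries. DNAH5, DNAH7, DNAH6 and DNAH3 are higher in red than in blue libraries in every background, and DNAH14 is lower.

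Most mitotic motors had log2 fold-changes below the fold threshold. Without a transgene 2 of the 14 were called higher, KIF15 and KIF18A, in the NRF1-FL line 1 (KIF18A) and in the NRF1-ΔE7 line 3 (KIF15, KIF18A and KIF2C), and none was called lower. Of all genes tested, 13.7%, 13.1% and 16% were called higher. By the adjusted p alone, 3 of the 14 were lower in each comparison and 8, 8 and 7 were higher (64.5%, 63.5% and 68.1% of all genes passed in either direction). KIF11, the tetrameric motor that separates the spindle poles, was at 259, 273 and 259 CPM in siNT and 267, 242 and 238 CPM in siNRF1 libraries (log2 fold-change −0.08 ± 0.04 SE, adjusted p = 0.081, edgeR). KIF23, which bundles microtubules at the midbody, was at 210, 216 and 204 CPM and 214, 199 and 203 CPM (−0.03 ± 0.03 SE, adjusted p = 0.39, edgeR). For both genes the groups overlapped. With NRF1-FL and NRF1-ΔE7 the log2 fold-changes were −0.14 and −0.11 for KIF11 and 0.01 and 0.01 for KIF23.

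KIF20A, the kinesin-6 that carries the chromosomal passenger complex to the midzone, lay below the siNT range in every background without reaching the fold threshold. It was at 140, 139 and 142 CPM in siNT and 107, 109 and 110 CPM in siNRF1 libraries without a transgene (log2 fold-change −0.37 ± 0.03 SE, adjusted p = 1.8e-10, edgeR), with −0.41 and −0.48 in the lines. In the NRF1-ΔE7 line it was at −0.51 and called lower when siNRF1 replicate 3 of that line was left out. KIF18A, which dampens chromosome oscillations, rose from 34.2, 37.2 and 37.2 CPM to 55.4, 52.2 and 52.5 CPM (0.56 ± 0.04 SE, adjusted p = 5.3e-11, edgeR). KIF15, which backs up KIF11, rose from 38.2, 40.3 and 40.0 CPM to 61.1, 56.6 and 59 CPM (0.58 ± 0.03 SE, adjusted p = 6.4e-13, edgeR). The microtubule depolymerase KIF2C and the chromokinesin KIF4A were between 0.42 and 0.56 in the 3 comparisons, at the edge of the fold threshold. With upper-quartile scaling both were also called higher without a transgene, and KIF2C, KIF4A and KIF15 with NRF1-FL. KIF2C was also called with NRF1-FL under the filter of 10 counts in every library, and without siNT replicate 2 or siNRF1 replicate 2 or 3 of that line. KIF4A was called with NRF1-ΔE7 under upper-quartile scaling, under the filter of 10 counts in every library, and without siNT replicate 2 of that line. KIF4A reads may be shared with its retrocopy KIF4B. Summed over the 14 genes, mitotic motor mRNA went from 456 to 482 CPM per kb of canonical transcript without a transgene (SD 5.94 and 6.52, n = 3).

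Of 25 listed spindle and cytokinesis genes, 8 were lower and 9 higher by the adjusted p alone without a transgene (64.5% of all genes passed in either direction). AURKB alone was called by edgeR (28.9% of all genes were called), in the direction of KIF20A (log2 fold-change −0.58). CENPE, a kinesin whose symbol lies outside the rule, was at 0.20. Of 12 cell division markers CCNA2 was called lower (−0.56) and none higher, CDK1 was at 0.01 and MKI67 at 0.27, and their sum was 4010 to 4118 CPM in siNT and 4366 to 4455 CPM in siNRF1 libraries. The sequence TTTGAA, the core of the cell cycle element that represses mitotic genes before division, was found on either strand in the promoter windows of 9 of 14 mitotic motors (64.3%), 3 of 22 ciliary motors (13.6%) and 1 of 18 transport motors (5.56%), against 13.7% of the promoters of genes tested.

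KIF26A was at −0.04 to 0.26 on the log2 scale in the 3 comparisons, while KIF26B rose from 8.90, 8.44 and 7.52 CPM to 15.8, 16.7 and 15.1 CPM without a transgene and was called higher in each background.

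The isoforms were compared directly in cells depleted of endogenous NRF1, which asks whether the segment encoded by exon 7 matters for these genes. With NRF1-ΔE7 instead of NRF1-FL, 2 of 65 members (3.08%) were called, both lower, against 6.21% of all genes in either direction and 4.1% lower. They were KIF3A (log2 fold-change −1.20 ± 0.07 SE, adjusted p = 1.8e-12, edgeR), a 2.30-fold difference, and KIF21B (−0.66 ± 0.07 SE, adjusted p = 9.5e-08, edgeR). NRF1 itself was lower with NRF1-ΔE7 in this comparison, as given above, and the part of that difference was not tested. By the adjusted p alone 21 members passed, 14 lower and 7 higher, and 31.7% of all genes did.

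KIF21B, a kinesin-4 that pauses at microtubule ends and is best known in neurons and lymphocytes, had another pattern than KIF3A. Without a transgene it was at 5.11, 5.35 and 5.14 CPM in siNT and 5.53, 5.72 and 5.38 CPM in siNRF1 libraries (log2 fold-change 0.09, adjusted p = 0.34, edgeR). With NRF1-FL it was at 6.93, 7.11 and 6.69 CPM in siNT and 11.6, 11.6 and 11 CPM in siNRF1 libraries, and with NRF1-ΔE7 at 6.0, 5.52 and 5.03 CPM and 7.67, 7.09 and 6.83 CPM. Its highest levels were thus in the siNRF1 libraries with NRF1-FL, and the siRNA effect in that line exceeded the one without a transgene by 0.63 ± 0.11 SE (adjusted p = 0.00035, edgeR). The difference in siRNA effect between the NRF1-ΔE7 and NRF1-FL lines was −0.33 ± 0.10 SE (adjusted p = 0.051, edgeR).

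Other members stood on the low side with NRF1-ΔE7 under siNRF1 by less than the fold threshold. KIFC2 and KIF17 were at −0.46 each, DNAH14 at −0.45, KIF1B at −0.41, KIFAP3 at −0.32, KIF5C at −0.27 and KIF5B at −0.22, and KIF3B was at −0.06 (adjusted p = 0.23, edgeR). On the high side, DNAH5 was at 0.48 ± 0.13 SE (adjusted p = 0.0073, edgeR; 0.54 without NRF1-FL replicate 1 and 0.53 without NRF1-ΔE7 replicate 3, both past the threshold) and KIFC3 at 0.22. DNAH2 was at 0.60 ± 0.26 SE (adjusted p = 0.080, edgeR) and was called with the filter of 10 counts in every library or with only the compared libraries. No mitotic motor was called, and their log2 fold-changes lay within 0.11 of 0 apart from KIF25, which averaged 12.6 counts per library. Under siNT, with endogenous NRF1 in place, DNAH14 was at −0.30, KIF1B at −0.30 and KIF21B at −0.33 (adjusted p = 1.1e-05, 3.1e-06 and 0.0043, edgeR), while KIF3A was at −0.11 (adjusted p = 0.29, edgeR).

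Under siNT, 1 of 65 members was called between the lines (1.54%, against 2.21% of all genes tested and 1.05% higher), and 12 passed the adjusted p alone (15.5% of all genes). The called member was KIFC3, at 19.6, 16.6 and 19.0 CPM with NRF1-FL and 26.0, 27.3 and 25.1 CPM with NRF1-ΔE7 (log2 fold-change 0.51 ± 0.06 SE, adjusted p = 4.2e-06, edgeR), against 22.2, 20.9 and 21.4 CPM without a transgene. The line with NRF1-FL was below and the line with NRF1-ΔE7 above the cells without a transgene, and the call was lost when replicate 2 of either line was left out (log2 fold-changes 0.44 without the NRF1-FL library and 0.47 without the NRF1-ΔE7 library).

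**Figure D5:**
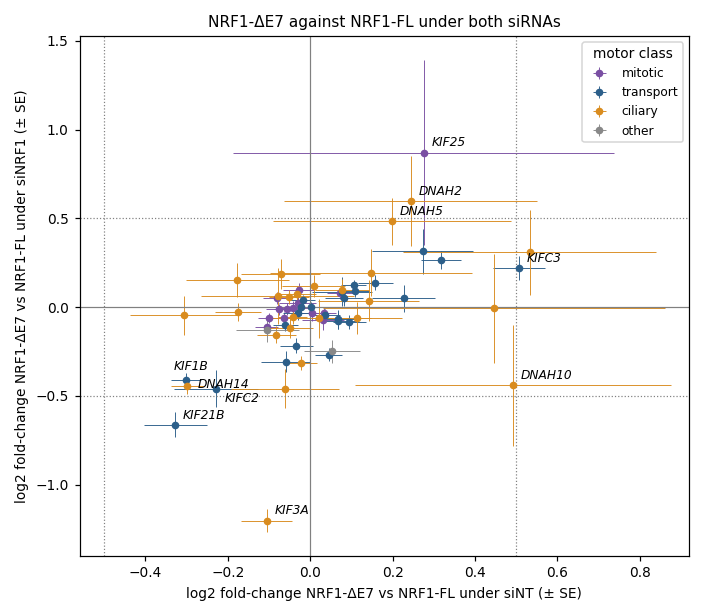
Log2 fold-change of NRF1-ΔE7 against NRF1-FL under siNT (x axis) and under siNRF1 (y axis) for the 65 motor genes, each with its SE in both directions and coloured by role; dotted lines mark 0.5 in either direction. KIF3A lies at −0.11 and −1.20, KIF21B at −0.33 and −0.66 and KIFC3 at 0.51 and 0.22, while most genes lie near 0 on both axes.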

How the data were processed

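Polyadenylated RNA of HEK293 Flp-In cells was sequenced from libraries made with a stranded mRNA kit. The authors deposited a table of estimated counts per gene, of which 91.9% were whole numbers, on hg38 with GENCODE v30 annotation. The submitters' processing notes name cutadapt 1.18, STAR 2.7.0f and DESeq2 1.46.0, while how reads were counted, and whether by strand, was not given in the sources used here. Of 36 value columns, 18 matched the labelled samples and the other 18 were not used. Other assays of the study were not analysed here.

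The estimated counts were rounded to whole numbers and fitted for all 18 libraries together in edgeR 4.0.16 (R 4.3.3), with TMM scaling, filterByExpr at a minimum count of 10 (17962 genes tested), 1 mean per condition and a quasi-likelihood F test with 12 residual degrees of freedom. The 2-sided p-values were adjusted by the Benjamini-Hochberg method over all genes tested. The biological coefficient of variation was 0.0337. CPM values are TMM-scaled, and CPM per kb uses the canonical transcript length of GENCODE v44, which is not the annotation of the counts. Interactions compare siRNA effects between backgrounds and share libraries with the comparisons they are made of. Upper-quartile and RLE scaling, other filters, only the compared libraries, a replicate block, each library left out and DESeq2 1.42.0 were run as alternatives. The fit was tested on simulated data that gave all genes the same dispersion and placed changes only in genes averaging at least 1 CPM. That test does not cover changes in genes below this level. Tables and figures were made with Python 3.11.15, pandas 2.3.3, numpy 2.4.6 and matplotlib 3.10.9.

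Equal replicate numbers were checked for pairing: residuals of same-numbered libraries correlated at −0.18 to 0.157, so the libraries were treated as unpaired. Replicates of a condition all differed beyond sampling noise, with a chi-square of 2.01 to 7.27 for each degree of freedom. The members and gene lists were chosen with earlier results of these data known. Values by library are given for fixed subunits (KIF3A, KIF3B, KIFAP3, KIF11, KIF23, KIF20A, KIF5B, DYNC1H1, DYNC2H1, DYNLL1 and DNAH5) and for the called members with the largest changes in each comparison. Of each gene list, the called genes with the largest changes and a few fixed genes are named. DYNC1LI1, DYNC1LI2, DYNLT1, KIF15, KIF17, KIF18A and KIF26B were given by library after their values were seen.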

Additional observations from a re-analysis of the deposited data

Results flagged for a closer look

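The siRNA effect differed between backgrounds, by edgeR's test of the interaction with adjusted p under 0.05, for 6 of the motor genes. Between the NRF1-ΔE7 and NRF1-FL lines the effect (log2 fold-change in the first minus that in the second) differed by −1.10 for KIF3A, −0.31 for KIF5C and −0.29 for KIFAP3. Between the NRF1-FL line and cells without a transgene it differed by 0.97 for KIF3A, 0.63 for KIF21B, 0.35 for KIFC3 and 0.26 for DYNLT1. Both contrasts include the NRF1-FL libraries and are not independent of each other.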

How the results depend on the processing

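Counts of motor genes called varied with the fold threshold. With the adjusted p alone, 49, 51 and 54 members passed in the siRNA comparisons (no transgene, NRF1-FL and NRF1-ΔE7 line), 21 and 12 between the isoforms under siNRF1 and siNT, and 3 and 4 in the interactions of the NRF1-FL line with the NRF1-ΔE7 line and with cells without a transgene. Leaving out 1 library gave 25 to 27, 23 to 24 and 26 to 28 calls in the siRNA comparisons, 2 to 4 between the isoforms under siNRF1 (4 without siNRF1+NRF1-ΔE7 replicate 1, which added KIF17 and KIFC2), 0 to 1 under siNT, 1 in the first interaction and 2 to 4 in the second (4 without siNT+NRF1-FL replicate 3, which added KIF9 and KIFC2). With a replicate block the counts were 26, 24, 26, 2, 1, 1 and 2, and no call changed. DESeq2 gave 26, 23, 26, 2, 1, 1 and 2. In the third interaction no member was called by any alternative. Of 1033 alternative values for 80 gene results, 1001 kept direction and side of the threshold, 7 passed and 3 fell short of the thresholds, and 22 changed sign, all for values near 0. With upper-quartile scaling the log2 fold-change without a transgene was 0.053 for KIF3B, 0.0035 for KIF11 and 0.054 for KIF23, and in the NRF1-ΔE7 line 0.072 for DYNC1H1 and 0.022 for DYNLL1. In the NRF1-FL line KIF23 was at −0.0021 with RLE scaling, −0.0035 without the filter, −0.00066 with only the compared libraries and −0.0020 with DESeq2, and DYNLL1 at −0.0067, −0.0076, −0.0057 and −0.0066. In the NRF1-ΔE7 line KIF23 was at −0.00016 with only the compared libraries. Leaving out 1 library, KIF23 ranged from −0.024 to 0.026 with NRF1-FL and −0.0073 to 0.021 with NRF1-ΔE7, DYNC1H1 from −0.083 to 0.0076 with NRF1-ΔE7, and DYNLL1 from −0.026 to 0.036 with NRF1-FL. The causes were not tested. A filter of 10 counts in every library left the called members DNAH5, DYNLRB2 and DNAH12 untested, and DNAH10, which was called with NRF1-FL. The siNT counts of these genes are low.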
